A study of Mus musculus with 72 samples.

Results

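The transcription factor TFEB was measured by chromatin immunoprecipitation sequencing (ChIP-seq) in microglial nuclei of the mouse brain. Of the 72 samples in the series, 10 made up the comparison of TFEB with input chromatin. These were 3 TFEB and 3 input libraries from wild-type C57BL/6 mice (WT), and 2 TFEB and 2 input libraries from SgshKO mice on the same strain. SgshKO mice lack Sgsh, the lysosomal enzyme that removes sulfate groups from heparan sulfate, and loss of the human gene causes mucopolysaccharidosis type IIIA (Sanfilippo syndrome). The labels gave no age or further treatment for these libraries, nor whether each came from a separate animal. Nuclei were sorted as PU.1-positive and negative for OLIG2 and NEUN, and chromatin was crosslinked with DSG and then formaldehyde. The labels name a pair of TFEB antibodies together.

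The replicates had been merged into 1 pool per genotype and antibody, so each peak has 1 TFEB value and 1 input value per genotype and no replicate check. Differences between pools are therefore given as sizes with no test. Intervals beside folds are 95% exact intervals for counted tags. They reflect counting alone, and PCR copies of a molecule may be among the tags. Values are tags per 10M (1e+07) mapped tags in a window of about 200 bp around each of 91770 peaks of open microglial chromatin in mm10. The wild-type TFEB pool held 42650629 tags and the SgshKO TFEB pool 35169041, against 48984909 and 40351089 for the inputs.

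TFEB belongs to the MiT/TFE family with MITF, TFE3 and TFEC, basic helix-loop-helix leucine zipper factors that bind E-box DNA as homodimers or heterodimers. In fed cells TFEB is phosphorylated by mTORC1 on the lysosomal surface and held in the cytoplasm, and it enters the nucleus when lysosomes are starved or stressed. Its best known targets are the CLEAR network genes, which encode lysosomal hydrolases, lysosomal membrane proteins, the proton pump and parts of the autophagy machinery. Microglia are the resident phagocytes of the brain and rely on lysosomes to degrade what they take up.

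The DNA under some TFEB-enriched promoter peaks is given in 2 sets, to set promoters that carry the TFEB E-box beside promoters with TFEB signal that do not. Sequences are the part of the peak inside the RefSeq promoter window of GRCm38.p6, the assembly behind mm10. They read 5′ to 3′ on the strand of the gene. By the distances in the deposited annotation they end before the start site, except those of Ctsd and Dnase2a, which run past it. Capitals mark the E-box CACGTG and, where present, the flanking T on its 5′ side or A on its 3′ side that makes TCACGTG on either strand. The promoters with an E-box are those of Atg3 (chr16:45158726-45158828, plus strand), an autophagy enzyme that lipidates LC3, Naglu (chr11:101069845-101070045, plus strand), the heparan sulfate enzyme N-acetylglucosaminidase, Ctsd (chr7:142387828-142387967, minus strand), the lysosomal protease cathepsin D, Bhlhe41 (chr6:145865421-145865601, minus strand), a circadian repressor, and Rragc (chr4:123917249-123917432, plus strand), a Rag GTPase that recruits mTORC1 to the lysosome.
Atg3: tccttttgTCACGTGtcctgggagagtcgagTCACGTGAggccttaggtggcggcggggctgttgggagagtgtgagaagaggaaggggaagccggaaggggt
Naglu: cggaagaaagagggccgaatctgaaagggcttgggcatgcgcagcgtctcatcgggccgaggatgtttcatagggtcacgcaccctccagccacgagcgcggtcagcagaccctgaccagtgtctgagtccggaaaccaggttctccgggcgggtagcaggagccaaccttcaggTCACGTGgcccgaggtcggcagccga
Ctsd: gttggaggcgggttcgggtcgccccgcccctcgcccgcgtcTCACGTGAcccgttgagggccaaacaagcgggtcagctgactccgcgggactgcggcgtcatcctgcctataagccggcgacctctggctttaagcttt
Bhlhe41: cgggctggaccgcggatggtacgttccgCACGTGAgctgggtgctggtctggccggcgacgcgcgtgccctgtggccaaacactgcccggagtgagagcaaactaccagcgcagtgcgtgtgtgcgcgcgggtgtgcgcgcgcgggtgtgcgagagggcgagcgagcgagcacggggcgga
Rragc: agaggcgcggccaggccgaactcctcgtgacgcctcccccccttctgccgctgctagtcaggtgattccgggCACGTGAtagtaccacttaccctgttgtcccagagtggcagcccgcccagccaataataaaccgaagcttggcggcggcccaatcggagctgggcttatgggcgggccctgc

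The second set has TFEB at least 2-fold over input in both genotypes and no CACGTG in these stretches. It holds the promoters of Cd68 (chr11:69666171-69666368, minus strand), a lysosomal membrane glycoprotein of macrophages, Fnip2 (chr3:79567732-79567929, minus strand), a partner of folliculin in nutrient signalling, Cst3 (chr2:148875516-148875716, minus strand), the protease inhibitor cystatin C, Dnase2a (chr8:84908505-84908689, plus strand), the lysosomal DNase, and Neu1 (chr17:34931140-34931252, plus strand), the lysosomal sialidase. The Cd68 stretch holds 2 matches to the AP-1-type sequence TGACTCA, and no match in a stretch says only that the letters are not in that window.
Cd68: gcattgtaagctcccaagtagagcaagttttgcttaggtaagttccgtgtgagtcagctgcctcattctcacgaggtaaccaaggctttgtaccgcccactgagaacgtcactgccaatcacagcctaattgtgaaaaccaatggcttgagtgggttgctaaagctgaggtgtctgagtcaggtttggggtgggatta
Fnip2: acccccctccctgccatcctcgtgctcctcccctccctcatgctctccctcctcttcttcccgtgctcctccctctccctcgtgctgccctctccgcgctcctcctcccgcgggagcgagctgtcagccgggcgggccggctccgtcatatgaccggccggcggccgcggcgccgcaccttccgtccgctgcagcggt
Cst3: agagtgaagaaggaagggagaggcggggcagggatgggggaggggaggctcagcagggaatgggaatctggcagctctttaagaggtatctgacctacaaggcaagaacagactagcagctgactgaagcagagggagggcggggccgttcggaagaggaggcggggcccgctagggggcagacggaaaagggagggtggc
Dnase2a: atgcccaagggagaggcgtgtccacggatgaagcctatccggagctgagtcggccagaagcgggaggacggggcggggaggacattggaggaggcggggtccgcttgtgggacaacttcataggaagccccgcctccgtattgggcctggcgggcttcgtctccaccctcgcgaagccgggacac
Neu1: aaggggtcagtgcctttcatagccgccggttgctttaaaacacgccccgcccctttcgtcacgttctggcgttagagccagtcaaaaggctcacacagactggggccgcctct

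The pools differed in how their tags were spread, which touches every comparison between genotypes. In the SgshKO TFEB pool 46.0% of peaks were listed at 0 tags, and only 3.99% held 1 to 9 tags, while peaks with tags had a median of 42. In the wild-type TFEB pool 17.6% of peaks were listed at 0 and 18.1% held 1 to 9 tags, with a median of 28 where tags were present. The SgshKO input was listed at 0 in 47.6% of peaks and the wild-type input in 4.06%. A SgshKO TFEB value of 0 also stood at 7143 of the 20914 peaks (34.2%) where the SgshKO input held at least 20 tags, against 2165 of 42252 (5.12%) for wild type. Where the SgshKO input had tags, its median was 17. For this reason a 0 is called listed at 0. A fold over a pool listed at 0 is taken against a floor of 3 tags per pool and given as at least that size. It is a lower bound only if the 0 is a true count, which was not tested.

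**Figure D1:**
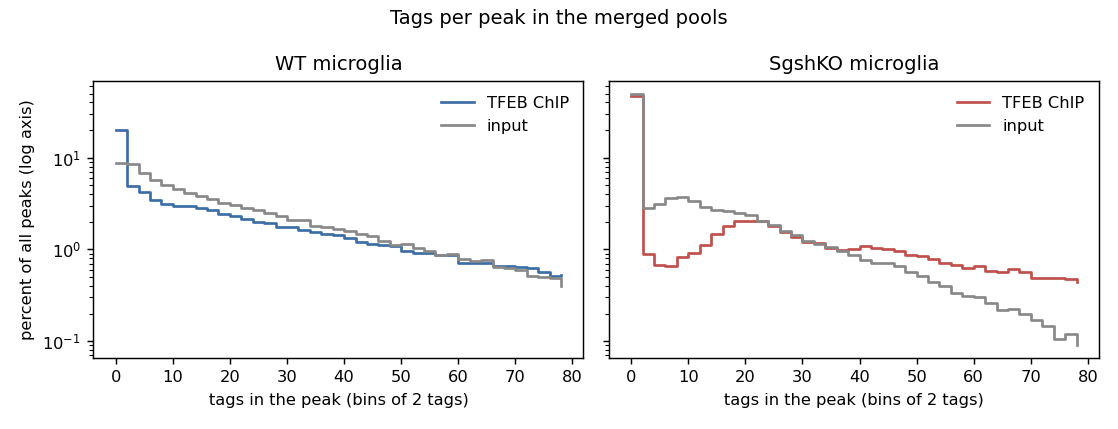
Share of the 91770 peaks (log axis) against the number of tags in the peak in bins of 2 tags, for the TFEB pool (coloured) and the input pool (grey) of each genotype. In WT both lines fall steadily from 0, while in SgshKO 46.0% of peaks have no TFEB tag, few have 1 to 9, and a second rise follows above that.

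TFEB was at least 2-fold over input, on the scale of log2 of tags per 10M plus 1, at 29807 peaks in WT (32.5% of all) and at 37036 in SgshKO (40.4%). Both conditions were met at 15675 peaks (17.1%), which are called TFEB-enriched here. They were 52.6% of the wild-type list and 42.3% of the SgshKO list. In 46.2% of the TFEB-enriched peaks the SgshKO input was listed at 0. The median log2 ratio over input in them was 1.86 in WT and 3.23 in SgshKO, or 2.86 in SgshKO with the inputs at 0 set to the floor. Their median TFEB level was 20.9 tags per 10M in WT and 22.2 in SgshKO, against 3.28 and 0 at all other peaks. With at least 100 tags required in each TFEB pool, 4514 peaks were enriched in both genotypes. As a description, the rank correlation of the TFEB pools across peaks was 0.47 over all peaks and 0.58 over the enriched ones. That of TFEB with its own input was 0.58 over all peaks and 0.83 over the enriched ones in WT. In SgshKO it was 0.19 and 0.42. Over all peaks wild-type TFEB thus followed its input (0.58) more closely than it followed the SgshKO TFEB pool (0.47). The enriched peaks were chosen by TFEB over that same input, so the correlation with input there is partly set by the choice. Over the enriched peaks wild-type TFEB had rank correlations of 0.81 with wild-type TFE3 and 0.76 with wild-type MITF.

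TFEB-enriched peaks lay mostly away from promoters. By the deposited annotation 42.6% were in introns, 29.7% were intergenic and 21.6% were at promoters, against 45.0%, 28.7% and 17.7% of all peaks. Exonic peaks were least often enriched, 9.55% of them against 20.9% of promoter peaks. The position changed with the strength of the signal. The share of peaks within 1 kb of a start site was 23.3% where the mean log2 ratio was below 0 and 30.1% where it was 2 to 3. It was 16.2% among the 198 peaks with a mean ratio of 5 or more, of which 38.4% were intergenic. By count, the genes with the most TFEB-enriched peaks nearest to their start sites were A630001O12Rik with 23 of 50 and Runx1 with 21 of 93. Runx1 encodes a haematopoietic transcription factor. Frmd4a had 18 of 83, Maf 18 of 55 and Tns3 18 of 71. Over all peaks 17.1% were TFEB-enriched, so genes with many peaks stand high in a ranking by count.

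None of the 10 peaks with the highest mean ratio, among those with at least 20 tags in each TFEB pool, lay at a promoter. The first was an intergenic peak at chr15:38644481-38644681, 17323 bp from the start of Atp6v1c1, which encodes a subunit of the proton pump. It held 131 TFEB tags per 10M in WT and 456 in SgshKO, with inputs of 2.25 and 0.99. A peak in intron 1 of Tfeb itself, chr17:47757140-47757340, held 115 in WT and 422 in SgshKO, with inputs of 6.33 and 0. That was 18.2-fold over input in WT (95% interval 12.6 to 27.1) and at least 568-fold in SgshKO. An intergenic peak 18022 bp from Atf3, a stress-response transcription factor, at chr1:191201255-191201455 had the most wild-type TFEB tags of all peaks, 442 per 10M, with 583 in SgshKO. Its inputs were 10.6 and 3.22, so TFEB was 41.6-fold over input in WT (31.6 to 55.9) and 181-fold in SgshKO (106 to 340.2).

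The other 7 were nearest to Ubl3, Dusp27, Aida, Atp13a2, A530013C23Rik, Scaf11 and 2700070H01Rik. Atp13a2 encodes a lysosomal polyamine transporter, and its peak 3302 bp from the start site held 211 tags per 10M in WT and 308 in SgshKO. In 9 of the 10 the SgshKO pool held more tags per 10M than the wild-type pool. The exception was the peak nearest to A530013C23Rik, with 330.4 in WT and 239 in SgshKO. The ranking includes the SgshKO TFEB pool, so this count is partly set by the choice of peaks. Over all peaks, in the scaled comparison below, the SgshKO pool was at least 2-fold higher at 18.8% and at least 2-fold lower at 41.3%.

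Among the 13129 genes with a peak within 1 kb of the start site, 2892 promoters (22% of them) were TFEB-enriched, and shares in gene lists are read against that. The lists cover lysosomal, autophagy, nutrient-sensing and microglial genes, and each was scored by the peak nearest to the gene's start site. The median log2 ratio over all promoters was 0.42 in WT and 1.26 in SgshKO.

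**Figure D2:**
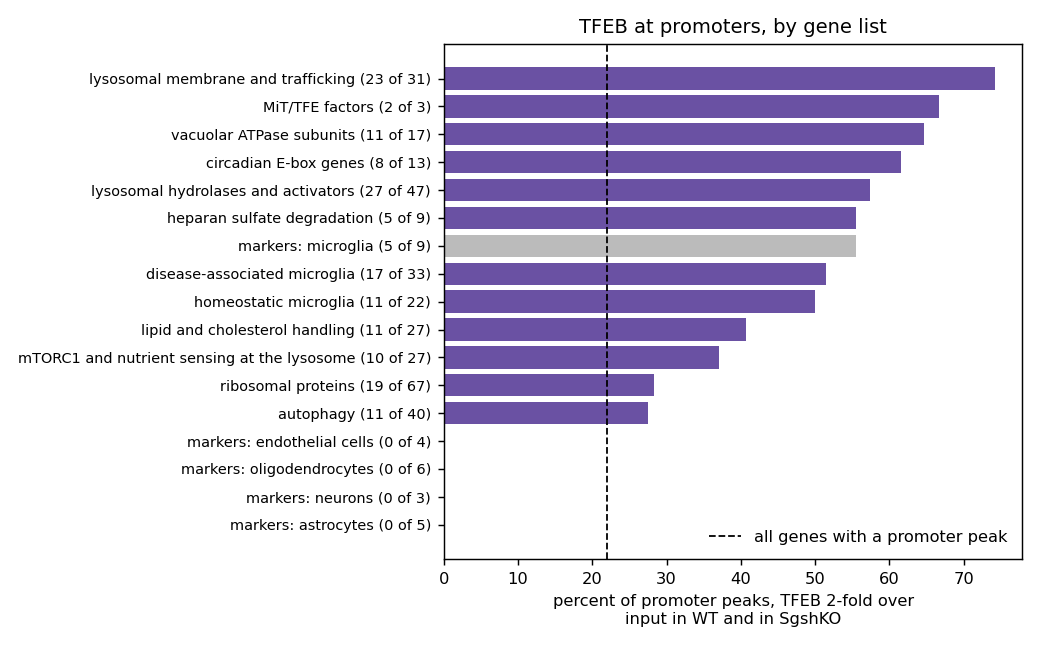
Percent of promoter peaks with TFEB at least 2-fold over input in both genotypes, for each gene list (purple) and for marker lists of cell types (grey), with counts in brackets and all promoters as the dashed line at 22%. Lysosomal lists lie between 55.6% and 74.2%, and the neuron, oligodendrocyte, astrocyte and endothelial marker lists are at 0. Those marker lists hold only 3 to 6 promoter peaks each.

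Of the 47 genes for lysosomal hydrolases and their activators with a promoter peak, 27 (57.4%) were TFEB-enriched. Their median log2 ratio was 1.24 in WT and 3.12 in SgshKO, or 2.67 with inputs at 0 set to the floor. Naglu had the most TFEB tags, with 194 tags per 10M in WT and 308 in SgshKO over inputs of 9.39 and 11.2. Both pools stood far above input there, by 20.7-fold in WT (15.4 to 28.5) and 27.6-fold in SgshKO (20.5 to 38.1). Hexa, the alpha subunit of beta-hexosaminidase, had a peak in exon 1 at chr9:59539578-59539778 with 88.6 in WT and 191 in SgshKO over inputs of 7.76 and 0.25. The Ctsd promoter held 47.4 in WT and 168 in SgshKO over inputs of 12.4 and 3.97, so that TFEB was 3.8-fold over input in WT (2.84 to 5.15) and 42.5-fold in SgshKO (25.9 to 74.8). Gla, Ctsa and Ids were not enriched in both genotypes, and Ids was listed at 0 in both TFEB pools.

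Lysosomal membrane and trafficking genes had the largest share, 23 of 31 (74.2%), with median log2 ratios of 1.44 in WT and 4.41 in SgshKO (3.70 with the floor). The Cd68 promoter, chr11:69666168-69666368, held 296 TFEB tags per 10M in WT and 364 in SgshKO, over inputs of 31.0 and 0. TFEB was 9.54-fold over input there in WT (8.05 to 11.4) and at least 490-fold in SgshKO. Lamp1, a major glycoprotein of the lysosomal membrane, had 40.3 in WT and 114 in SgshKO, over inputs of 1.43 and 0. Cd63, a tetraspanin of late endosomes, had 67.1 and 206 over inputs of 2.04 and 3.47, which was 32.8-fold in WT (17.6 to 69.2) and 59.3-fold in SgshKO (35.1 to 109). Mcoln1, the lysosomal calcium channel, had 26.3 and 62.3 over inputs of 1.22 and 1.98. Clcn7, the lysosomal chloride-proton exchanger, had 26.7 and 108.

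The vacuolar ATPase, the proton pump that acidifies lysosomes, was enriched at 11 of 17 subunit promoters (64.7%). Atp6v1c1 had 59.3 tags per 10M in WT and 134 in SgshKO at its promoter, over inputs of 12.7 and 0, in addition to the distal peak above. Atp6v1a, a catalytic subunit, had 38.7 and 189, and Atp6v1b2 had 33.8 and 92.1. Atp6v0c and Tcirg1, subunits of the membrane sector, went the other way, with 65.0 in WT against 27.6 in SgshKO and 35.4 against 12.2. Genes of heparan sulfate degradation, the pathway that Sgsh belongs to, were enriched at 5 of 9 promoters (55.6%). Sgsh was not among them in WT, with 13.1 TFEB tags over an input of 8.57, and it had 21.6 over 3.97 in SgshKO. A peak at its promoter says nothing about the deleted part of the gene, so it does not check the labels.

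**Figure D3:**
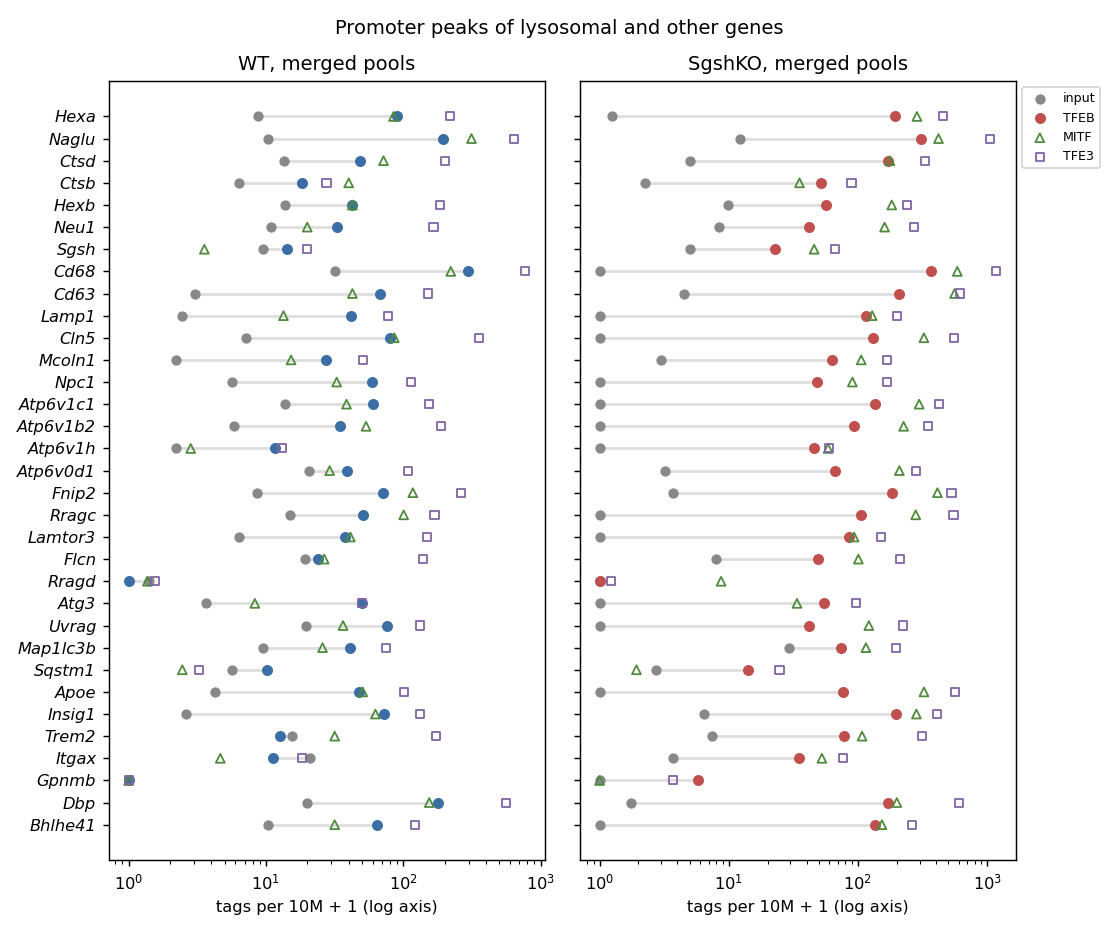
Tags per 10M plus 1 (log axis) at promoter peaks of named genes in WT (left) and SgshKO (right) pools. Grey points are input, filled coloured points TFEB (blue in WT, red in SgshKO), open triangles MITF and open squares TFE3, and a line joins input and TFEB. TFE3 is the highest of the factors at most of these promoters, and Rragd is at or near 0 in both TFEB pools.

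mTORC1 and nutrient-sensing genes were enriched at 10 of 27 promoters (37.0%). Fnip2 had 70.3 tags per 10M in WT and 181 in SgshKO over inputs of 7.55 and 2.73, or 9.31-fold (6.60 to 13.5) and 66.5-fold (36.9 to 134). Rragc had 50.2 and 105 over inputs of 13.9 and 0. Lamtor1, part of the Ragulator scaffold for Rag GTPases, had 102 and 185. Flcn, the GTPase-activating protein for RagC and RagD, had 23 over an input of 18.4 in WT and 47.8 over 6.94 in SgshKO. Rragd, a Rag GTPase often described as a TFEB target, was listed at 0 in both TFEB pools at its promoter.

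Autophagy promoters were enriched in 11 of 40 cases (27.5%), near the share of all promoters. Atg3 had the highest mean log2 ratio, with 49 tags per 10M in WT and 53.5 in SgshKO over inputs of 2.65 and 0, or 18.5-fold in WT (10.6 to 35.3) and at least 71.9-fold in SgshKO. Uvrag, a regulator of autophagosome maturation, had 75.7 and 41.0 over inputs of 18.6 and 0. Map1lc3b, which encodes LC3B, had 39.9 in WT over 8.57 and 72.5 in SgshKO over an input of 28.5. Sqstm1, the autophagy receptor p62, had 9.14 and 13.1, and Becn1 had 0.7 and 0.

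Genes raised in disease-associated microglia were enriched at 17 of 33 promoters (51.5%) and homeostatic microglial genes at 11 of 22. The disease-associated list shares Cd68 and Cd63 with the lysosomal membrane list. Ccl3, a chemokine, had 67.1 tags per 10M in WT and 249 in SgshKO over inputs of 7.55 and 0. Trem2, a microglial lipid receptor, was below its input in WT (11.7 against 14.5) and above it in SgshKO (76.5 against 6.44). Apoe, the lipid carrier, had 46.7 and 75.6 over inputs of 3.27 and 0. Gpnmb, a lysosomal glycoprotein, was listed at 0 in WT with 4.83 in SgshKO. Among homeostatic genes, Cst3 had 111 in WT and 83.9 in SgshKO, Cx3cr1, the fractalkine receptor, had 97.3 and 63.1, and P2ry12, a purinergic receptor, had 40.1 and 13.6.

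Circadian E-box genes were enriched at 8 of 13 promoters (61.5%). Dbp, a clock output factor, had 177 tags per 10M in WT and 171 in SgshKO over inputs of 19 and 0.74. Ribosomal protein genes, most of them active promoters in any cell, were enriched at 19 of 67 (28.4%). Of the markers of other brain cells, 0 of 3 for neurons, 0 of 6 for oligodendrocytes, 0 of 5 for astrocytes and 0 of 4 for endothelial cells were TFEB-enriched at a promoter, against 5 of 9 for microglia. That contrast rests on few promoter peaks. Over all peaks nearest to the markers, 12 of 56 (21.4%) were enriched for oligodendrocytes and 35 of 165 (21.2%) for microglia. The share was 12.5% for neurons and for astrocytes and 10.2% for endothelial cells, against 17.1% of all peaks. With at least 100 tags required in each TFEB pool the overall share fell to 5.64% of promoters. It was then 31.9% for hydrolases, 35.5% for membrane genes, 35.3% for the proton pump, 45.5% for homeostatic genes, 17.5% for autophagy and 8.96% for ribosomal proteins.

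The MiT/TFE genes carried TFEB-enriched peaks of their own. These were 7 of 27 peaks nearest to Tfeb, 10 of 17 nearest to Mitf, 2 of 5 nearest to Tfe3 and 1 of 4 nearest to Tfec. The strongest by far was the intron 1 peak of Tfeb. Other peaks in the same intron held 112 in WT and 69.1 in SgshKO, and 70.3 and 81.0. The Tfeb promoter had 18.5 and 21.3, and the Mitf promoter 31.2 and 9.1.

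The motif content of promoters followed the TFEB signal. Of the 32851 RefSeq promoter windows of 300 bp, 7094 shared at least 100 bp with a peak. TCACGTG, read on both strands, stood in 11.1% of the 1665 windows that were TFEB-enriched and in 3.74% of the 2195 enriched in neither genotype. All promoter windows held it in 3.77% of cases. It stood in 3.52% of windows enriched in WT only and 6.63% of those enriched in SgshKO only. CACGTG, which TCACGTG contains, stood in 16.4% and 7.88% of the same windows and in 7.15% of all promoters. The longer CLEAR element, which contains both, stood in 1.14% and 0.319%, against 0.326% of all promoters.

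The share of windows with TCACGTG was 2.74% at a mean log2 ratio of -1 to 0, 6.02% at 1 to 2, 12.1% at 3 to 4 and 31.0% at 4 to 5. Above 5 there were only 14 windows, of which 1 held it, and the share over all 98 windows above 4 was 27.6%. Windows with no CACGTG were TFEB-enriched in 22.1% of cases, those with 1 copy in 31.6% and those with 2 or more in 55.2% of 87. The Atg3 stretch above is of the last kind. In windows with TCACGTG the median log2 ratio was 0.95 in WT and 2.81 in SgshKO, against 0.49 and 1.47 without it. Most TFEB-enriched promoter windows, like those of Cd68 and Fnip2, had no CACGTG.

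Other sequences were counted for comparison. TCATGTG, the M-box variant, stood in 3.66% of TFEB-enriched windows and in 1.14% of those enriched in neither genotype, but in 3.77% of all promoters. The PU.1-type sequence GAGGAAGT stood in 6.01% and 2.64%, against 3.20% of all promoters. CAGCTG, another E-box, stood in 17.5% and 15.4%, and the AP-1-type TGACTCA in 3.78% and 4.05%, against 16.3% and 5.20% of all promoters. Each was read on both strands, and none of these contains CACGTG. A match is a description of the letters and was not tested as a binding site.

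**Figure D4:**
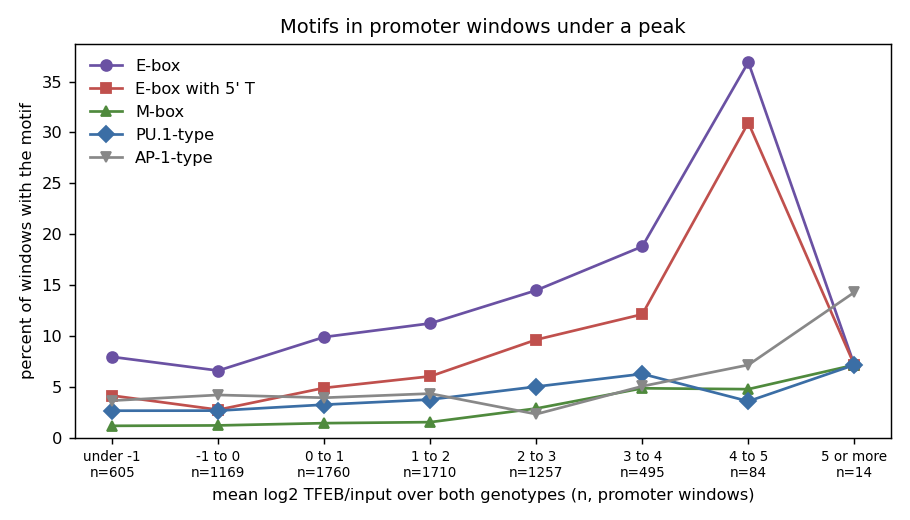
Percent of promoter windows holding each motif against the mean log2 TFEB ratio over input in both genotypes, with the number of windows in each bin under the axis. The E-box with a 5′ T goes from 2.74% at -1 to 0 to 31.0% at 4 to 5, and the last bin rests on 14 windows.

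TFEB signal was then compared directly between genotypes, with pools scaled by TMM, a factor taken from log ratios between pools after trimming extremes. Over all peaks the SgshKO pool was at least 2-fold higher at 18.8% and at least 2-fold lower at 41.3%, the median log2 difference being -0.43. Among the 51168 peaks enriched in at least 1 genotype, 14710 were higher and 17938 lower. Scaling by library total gave 17053 higher and 15881 lower. When a tag was required in each pool, 11278 were higher and 7794 lower, so the balance of the directions depends on these settings and on peaks listed at 0. Among the TFEB-enriched peaks 2460 (15.7%) were higher and 3812 (24.3%) lower in SgshKO.

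Gene lists differed in direction at promoters enriched in at least 1 genotype, where over all 8488 such promoters 28.8% were higher and 27.4% lower, with a median log2 difference of 0.10. Lysosomal membrane and trafficking genes were higher in SgshKO in 13 of 27 cases and lower in 1, with a median of 0.91. Proton pump genes were higher in 8 of 17 and lower in 3, with a median of 0.90. mTORC1 genes had 5 higher and 1 lower of 17 (median 0.70), and autophagy genes 12 higher and 2 lower of 30 (median 0.47). Hydrolases were near the average of promoters, with 11 higher and 7 lower of 41 (median 0.08). Homeostatic genes had 0 higher and 4 lower of 18, with a median of -0.65. The medians of these lists kept their sign with scaling by library total and by tags in all peaks, where the homeostatic median was -0.34 and -0.47 and the membrane median 1.21 and 1.10.

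For single promoters the ratio of tags per 10M between SgshKO and WT was 3.55 at Ctsd (3.02 to 4.19), 3.07 at Cd63 (2.67 to 3.53), 2.83 at Lamp1 (2.37 to 3.41) and 2.58 at Fnip2 (2.25 to 2.97). It was 6.52 at Trem2 (4.81 to 9.01) and 1.23 at Cd68 (1.14 to 1.33). At the intron 1 peak of Tfeb it was 3.67 (3.31 to 4.07). It was 0.541 at Uvrag (0.441 to 0.660) and 0.292 at the Mitf promoter (0.192 to 0.432). These ratios and intervals were taken without TMM scaling. With TMM the ratio was 2.83 at Ctsd, 2.45 at Cd63, 2.25 at Lamp1, 2.06 at Fnip2 and 5.01 at Trem2. At Cd68 it was 0.99, so the small excess there depends on the scaling. The Tfeb intron 1 peak was at 2.93, Uvrag at 0.44 and the Mitf promoter at 0.25. The intervals do not hold the spread between animals, which the merged pools do not show.

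Of the 5 peaks with the largest excess in SgshKO, 4 were listed at 0 in WT. A peak in intron 1 of Cipc, which encodes a circadian regulator, had 0 and 151 tags per 10M, at least 214-fold higher. Distal peaks nearest to Fabp5, a fatty acid binding protein, and to Slc7a11, the cystine transporter, had 0 and 107 and 0 and 89.0. They were at least 152-fold and 127-fold higher. The peak nearest to Eif1a, a translation initiation factor gene, had 0 and 84.5. The remaining peak, nearest to Uqcr10, rested on 3 tags in WT against 688 in SgshKO, a ratio of 278 with an interval of 94.8 to 1352. The related factors were high in SgshKO at the same 5 peaks, MITF at 95.7 to 417 and TFE3 at 183 to 596. In WT they were at 0 to 11.3 and 0 to 15.1.

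The 5 largest deficits all had SgshKO TFEB listed at 0. They lay nearest to Il1b (104 in WT), which encodes interleukin 1 beta, 1700112H15Rik (90.0), Aldh3b1 (83.9), Kcnj10 (81.8) and Map3k14 (79.95). The related factors were not at 0 in SgshKO at these peaks. At the Il1b peak, chr2:129373495-129373695, MITF had 91.3 in WT and 95.4 in SgshKO, and TFE3 120 and 86.3. At the Aldh3b1 peak MITF had 48.6 and 80.6. At the remaining peaks MITF was lower in SgshKO than in WT. It had 95.3 and 11.4 at Map3k14, 67.2 and 23.5 at Kcnj10, and 44.5 and 27.2 at 1700112H15Rik. Whether the TFEB zeros there are absent binding or missing tags was not tested.

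TFEB, MITF and TFE3 pools shared their input, so the factors were compared directly at the TFEB-enriched peaks. Median levels there were 20.9 tags per 10M for TFEB, 16.4 for MITF and 35.0 for TFE3 in WT, and 22.2, 30.3 and 59.2 in SgshKO. The share of each pool's tags that fell in peaks was 9.46% for TFEB, 10.7% for MITF and 20.7% for TFE3 in WT, and 10.3%, 17.9% and 33.0% in SgshKO. A level thus carries the efficiency of each antibody as well as the amount of factor on DNA, and these cannot be told apart.

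Against MITF, after TMM scaling, TFEB was at least 2-fold higher in both genotypes at 7.44% of all peaks and at least 2-fold lower at 7.76%. At TFEB-enriched peaks it was higher at 2475 and lower at 359, with median log2 differences of 0.39 in WT and 0.04 in SgshKO. Enrichment for TFEB selects peaks where TFEB is high, so an excess of higher peaks there is partly set by the choice. With at least 100 tags in the higher pool the counts were 166 higher and 237 lower. The promoter of Per3, a clock gene, had 24.2 tags per 10M of TFEB in WT and 41.8 in SgshKO, with MITF at 0 and 0.93. A peak in intron 1 of Arrdc4, an arrestin-domain gene, had 24.8 and 27.3 with MITF at 0 in both, at least 22.7-fold and 29.5-fold higher. The others of the 5 largest, nearest to Rps6ka2, Mtfr1 and Olfr630, had TFEB between 18.3 and 36.3 with MITF at no more than 0.73.

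At the other end, a peak in intron 1 of Dusp3, a phosphatase gene, had 7.50 of TFEB in WT and 9.67 in SgshKO, with MITF at 36.1 and 175. The promoter of Ogt, the O-GlcNAc transferase, had 8.21 and 5.97 with MITF at 69.4 and 41.7. The remaining 3, nearest to Gm3519, Tspyl2 and Pmepa1, had MITF between 34.3 and 152 and TFEB between 5.69 and 21.3. Named lysosomal and autophagy promoters varied. Hexa had 88.6 of TFEB and 84.0 of MITF in WT, and 191 and 285 in SgshKO. Lamp1 had 40.3 and 12.4 in WT, and 114 and 128 in SgshKO. Atg3 had 49 and 7.30 in WT, and 53.5 and 32.7 in SgshKO. In tags per 10M, TFEB was thus above MITF in both genotypes at Atg3 and in WT alone at Hexa and Lamp1. After TMM scaling TFEB was above MITF at Lamp1 in SgshKO as well (log2 0.30). The directions at Hexa and Atg3 were the same with TMM.

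Against TFE3, TFEB was at least 2-fold higher in both genotypes at 4.69% of all peaks and at least 2-fold lower at 10.8%. At TFEB-enriched peaks 1832 were higher and 810 lower, with medians of 0.03 in WT and -0.21 in SgshKO. This balance turned with the scaling. By library total 776 were higher and 5242 lower, and by tags in all peaks 2670 were higher and 232 lower. Library total scaling moved the median of all peaks to -1.06, from -0.37 with TMM. With at least 100 tags in the higher pool 79 were higher and 770 lower. On tags per 10M, TFE3 exceeded TFEB at the strongest promoters, with 770 in WT and 1169 in SgshKO at Cd68 and 636 and 1051 at Naglu.

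Hydrolase promoters stood below the average on this measure, as did some other lists. Their median TFEB difference from TFE3 was -0.73 in WT and -0.58 in SgshKO on the log2 scale, against -0.06 and -0.23 for all TFEB-enriched promoters. The hydrolase median was negative under each of the 3 scalings, at -1.50 and -1.77 by library total and -0.41 and -0.13 by tags in all peaks. By library total all TFEB-enriched promoters were negative too, at -0.82 and -1.41. With TMM, homeostatic promoters were at -0.67 and -0.79, proton pump promoters at -0.57 and -0.43 and disease-associated ones at -0.36 and -0.47. Circadian promoters were at -0.03 and -0.06. Autophagy promoters, at -0.01 and 0.17 with TMM, changed sign with the scaling. The promoter of Cand2 had 12 and 19.6 of TFEB with TFE3 at 0.28 and 0, and the peaks nearest to Ipo5 and Gm42788 had TFE3 listed at 0 in both pools. A peak in intron 1 of Atg5, an autophagy conjugation factor, went furthest the other way, with 4.92 and 9.95 of TFEB and 84.0 and 172 of TFE3. Peaks nearest to Mir21c, Tns3, Nrros, a microglial regulator of TGF-beta, and Scaf11 had TFEB between 6.54 and 37.5 and TFE3 between 120 and 397.

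TCACGTG stood in 4.15% of 217 TFEB-enriched windows where TFEB was at least 2-fold over MITF in both genotypes. Where TFEB was at least 2-fold under MITF it stood in 2 of 25 (8%). Over all TFEB-enriched windows its share was 11.1%, and over windows enriched in neither genotype 3.74%. The shares were 3.45% of 87 windows over TFE3 and 11.4% of 79 under TFE3. Few peaks with TFEB over the other factor had at least 100 tags in the higher pool. These were 166 of 2475 over MITF and 79 of 1832 over TFE3. The share with TCACGTG also rose with the TFEB ratio, and the part of signal strength in these shares was not tested. It stood in 18.9% of 233 TFEB-enriched windows where TFEB was 2-fold higher in SgshKO, in 11.1% of 1074 within 2-fold and in 6.15% of 358 where it was lower.

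Acetylation of histone H3 at lysine 27 (H3K27ac), a mark of active promoters and enhancers, was measured in separate microglial libraries, 2 from each genotype at 4 and at 8 months. It gives a readout with replicates at the same peaks. Limma with Benjamini-Hochberg adjustment, two-sided, called 8704 of 69663 peaks higher in SgshKO (12.5%) and 7222 lower (10.4%). At TFEB-enriched peaks 2611 of 14667 were higher (17.8%) and 1641 lower (11.2%), and at peaks enriched in neither genotype 9.09% and 10.1%. Scaling by library total turned the balance to 1706 higher and 2731 lower at TFEB-enriched peaks, with all peaks at 5721 and 11473. TFEB-enriched peaks also had more H3K27ac, a median of 55.9 tags per 10M in WT against 19.9 where TFEB was not enriched. The part of that level in the number of calls was not tested.

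The share of peaks with higher H3K27ac in SgshKO was 9.22% where the mean TFEB ratio was below 0, 16.3% at 2 to 3, 33.0% at 4 to 5 and 53.5% of the 198 peaks at 5 or more. The share with lower H3K27ac was 9.93%, 10.8%, 6.9% and 3.03% in the same bins. The wild-type H3K27ac level went up over the bins as well, from a median of 19.7 to 113. The ratio for these bins includes the SgshKO TFEB pool, so it is not independent of genotype.

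The change in TFEB and the change in H3K27ac went together. At the 2203 TFEB-enriched peaks with TFEB at least 2-fold higher in SgshKO, H3K27ac was higher at 42.4% and lower at 2.95%, with a median log2 difference of 0.51. At the 8804 peaks within 2-fold it was higher at 16.3% and lower at 9.81%. At the 3660 peaks with lower TFEB it was higher at 6.53% and lower at 19.5%, with a median of -0.16. With at least 100 tags in each TFEB pool, H3K27ac was higher at 58.3% of 463 peaks in the first set and lower at 23.6% of 433 in the last. Over 17 settings of the H3K27ac test the first set had 32.5% to 43.3% of its peaks higher and 0.577% to 4.90% lower. The last had 3.42% to 6.80% higher and 6.48% to 30.6% lower. Across the 14667 peaks the rank correlation of the changes was 0.34, as a description over peaks that share libraries.

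**Figure D5:**
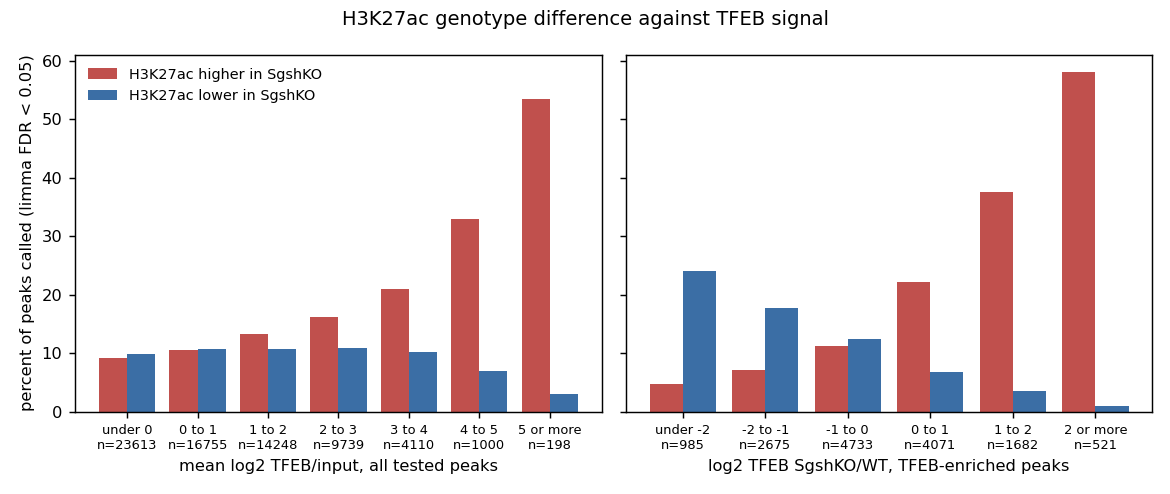
Percent of peaks with H3K27ac higher (red) or lower (blue) in SgshKO, called by limma at an adjusted p under 0.05, by mean log2 TFEB ratio over input for all tested peaks (left) and by log2 TFEB SgshKO/WT for TFEB-enriched peaks (right). On the right the share higher goes from 4.77% at under -2 to 58.2% at 2 or more, and the share lower from 24.1% to 0.960%.

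At the Tfeb intron 1 peak H3K27ac was 109, 108, 107 and 124 tags per 10M in the wild-type libraries and 258, 245, 215 and 209.7 in the SgshKO libraries. The groups did not overlap, and the log2 difference was 1.04 (SE 0.13, limma adjusted p = 1.23e-08). H3K27ac was called higher at 8 of the 10 peaks with the highest TFEB ratio and lower at none, the 2 not called being nearest to Atp13a2 (log2 0.22, adjusted p = 0.409 in limma) and A530013C23Rik (-0.03, adjusted p = 0.866). The Cd63 promoter went from 102 ± 14.3 (SD, n = 4) in WT to 270.5 ± 22.3 in SgshKO (log2 1.41, limma adjusted p = 7.33e-12). Apoe went from 27.2 ± 10.1 to 169 ± 17.0 (log2 2.66, limma adjusted p = 3.27e-14). Hexa went from 189 ± 26.2 to 288 ± 22.6 (log2 0.61, limma adjusted p = 4.28e-05). All 5 peaks with the largest TFEB excess in SgshKO were called higher, Cipc from 8.63 ± 3.04 to 49.5 ± 8.25 (log2 2.43, limma adjusted p = 1.60e-08).

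Other promoters with strong TFEB had no call. Cd68 differed by -0.05 (limma adjusted p = 0.863), Naglu by 0.29 (0.148), Ctsd by 0.15 (0.415) and Atg3 by -0.19 (0.489). At Crybb1, a homeostatic microglial gene with 51.4 TFEB tags per 10M in WT and 50.0 in SgshKO, H3K27ac went from 548 ± 49.7 (SD, n = 4) to 378 ± 36.8 (log2 -0.54, limma adjusted p = 3.74e-06). Rragd, with no TFEB tag in either pool, had 3.11 on the log2 scale (limma adjusted p = 6.18e-06). Of the peaks with the largest TFEB deficit, Map3k14 was lower (-0.35, limma adjusted p = 0.0436), Kcnj10 was higher (0.83, adjusted p = 0.00159), and the other 3 were not called.

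By list, with 6.46% of 10825 promoters higher and 5.39% lower, H3K27ac was higher at 19 of 31 disease-associated promoters and lower at 0, and higher at 0 of 22 homeostatic promoters and lower at 9. Hydrolases had 12 higher and 1 lower of 46, lysosomal membrane genes 6 and 0 of 31, proton pump genes 6 and 1 of 17, mTORC1 genes 6 and 0 of 26, and autophagy genes 5 and 0 of 40. Among the TFEB-enriched promoters of the disease-associated list 9 of 17 were higher, against 19 of 31 over the whole list. Of the homeostatic list 4 of 11 were lower, against 9 of 22. Calls in these lists were thus not more frequent at their TFEB-enriched promoters. Over all 2783 TFEB-enriched promoters tested, 231 were higher and 141 lower. No genotype by age difference passed the limma threshold at any of the 69663 peaks (0 called), with 4507 at an unadjusted p under 0.05. Marker promoters of cell types moved as well. H3K27ac was lower at 3 of 9 microglial markers and higher at 0, lower at 2 of 3 oligodendrocyte markers tested, higher at 2 and lower at 1 of 3 endothelial markers, and not called at the 1 neuronal and 1 astrocyte marker tested. Over 20 H3K27ac tags per 10M, as a mean of the 8 libraries, were 9 of 9 microglial markers with a peak (88.1 to 372), 0 of 3 neuronal (up to 15.7), 2 of 6 oligodendrocyte (up to 167), 1 of 5 astrocyte (up to 41.1) and 2 of 4 endothelial markers (up to 55.4). Summed over the oligodendrocyte markers, WT libraries had 273 to 371 and SgshKO libraries 136 to 192, with no overlap. The microglial sums were 2483 to 3024 in WT and 1806 to 2651 in SgshKO, and the endothelial sums 96.6 to 129 and 74.8 to 93.7. Astrocyte sums overlapped, at 44.2 to 55.1 in WT and 44.1 to 59.2 in SgshKO. Neuronal sums overlapped too, at 13.3 to 27.2 and 11.95 to 24.4. All these sums are in tags per 10M, so they are scaled by library total. Under that scaling the median log2 difference of all tested peaks was -0.20, against -0.02 in the main test. How far scaling shaped the sums was not tested. The part of these markers in the list changes was not tested. Since merged or sorted nuclei carry no count per cell, fewer bound cells and less factor per cell cannot be told apart.

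TFEB in oligodendrocyte nuclei, from 2 libraries per genotype merged in the same way, was set beside these peaks. Of the 15675 microglial TFEB-enriched peaks 3962 (25.3%) had an oligodendrocyte peak with its centre within 100 bp, and 2759 of those (69.6%) were at least 2-fold over input in both oligodendrocyte pools. The share was 46.9% of 18179 at other microglial peaks. It was 76.0% at the TFEB-enriched peaks within 1 kb of a start site and 56.8% farther away. Cd63 had 125 tags per 10M in WT and 416 in SgshKO in oligodendrocytes, and Map1lc3b 147 and 369.7. The Tfeb intron 1 peak had 1.51 and 11.4 there, against 115 and 422 in microglia. The Cd68, Lamp1, Ctsd and Ctsb promoter peaks had no oligodendrocyte peak within that distance.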

How the data were processed

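The signal values were deposited as tags per 10M mapped tags for merged pools, with library totals per the file headers. The submitters' processing notes name mm10, Bowtie2, HOMER and DESeq2, with no versions. How duplicate tags were treated was not found in the labels or headers. Whole tags were recovered from the values (all values of up to 200 tags came out whole, within 0.02 of a tag beyond the rounding of the file), so pools could be scaled by TMM (edgeR 4.0.16). TFEB over input was log2 of the ratio with a pseudocount of 1 tag per 10M, called at 2-fold. A promoter peak lay within 1 kb of a RefSeq start site, and 42 peaks had no gene in the deposited annotation. Of 378 gene names in the lists, 377 matched the RefSeq table. Floors were 3 tags.

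H3K27ac tags (about 800 bp windows, 8 libraries) were tested on the log2 scale with limma 3.58.1 in R 4.3.3 with genotype and age as terms and a filter on low counts, at an adjusted p of 0.05. edgeR, DESeq2 1.42.0 and scaling by library total were alternatives, and the limma script was tested on simulated data. The labels do not say that libraries came from separate animals, so p-values measure only the spread between these libraries. Tables were handled in Python 3.11.15 with pandas 2.3.3 and numpy 2.4.6. The named genes were a fixed set by nearest peak, the 10 peaks with the highest mean ratio and at least 20 tags in each TFEB pool, the 5 largest and 5 smallest ratios between genotypes and against MITF and TFE3, and the 3 highest promoters of each list. The promoters printed as sequences, and some other list members, were chosen after their values were seen. Members and lists were chosen with earlier results of these data known. Settings with 100 tags, 1 tag in each pool, other inputs and single ages were added after seeing the data.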

Additional observations from a re-analysis of the deposited data

How the results depend on the processing

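The planned test between TFEB replicates could not be made because the pools are merged. Enrichment counts (29807 in WT, 37036 in SgshKO, 15675 in both) depended on the threshold. With a pseudocount of 5 they were 17589 in WT and 9809 in both, and at 4-fold 11422 and 5645. With at least 100 tags they were 9076 in WT, 9657 in SgshKO and 4514 in both, and the SgshKO input raised the wild-type count to 47632. Peaks differing between genotypes (32648) numbered 8431 with at least 100 tags and 19072 with a tag in each pool. Peaks differing from MITF (2834) were 1845 with a pseudocount of 5 and 403 with at least 100 tags. Those differing from TFE3 (2642) were 6018 by library total, 1613 with a pseudocount of 5 and 849 with at least 100 tags. The share of listed genes with an enriched promoter (44.3%) was 25.3% over all their nearest peaks, 15.3% at 4-fold and 24.2% with at least 100 tags.

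H3K27ac calls (15926, and 4252 at TFEB-enriched peaks) were 7245 and 2225 at 4 months alone and 9296 and 2630 at 8 months alone, where fewer libraries entered. Leaving out each library gave 12377 to 15262 calls, and 3445 to 4019 at TFEB-enriched peaks. edgeR gave 8636 higher and 7062 lower, and DESeq2 8274 and 6334. Replicate numbers did not pair the libraries (correlation of same-numbered libraries 0.003 at 4 months and -0.020 at 8 months). A fit with the replicate block called 15414 peaks and 4096 at TFEB-enriched peaks. Of the single-gene and single-list values over these settings, 231 moved, 79 lost and 13 gained a call, and 1605 did neither. Most values of TFEB over input moved (174, against 120 that did not), as did most list values (38 against 14). Of the TFEB ratios between genotypes 19 moved and 128 did not. H3K27ac made up 1343 of the values that did not change. The TFEB pools are merged, so a move is not judged against a spread between replicates.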
